A study of Mus musculus with 8 samples.

Results

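The genes described here are 10 immediate early genes, Fos, Fosb, Jun, Junb, Egr1, Egr2, Egr3, Ier2, Nr4a1 and Atf3, in the median eminence (ME) of the mouse. They were taken as a list of names, by cell type in a single-cell table of 27998 genes and by library in a bulk table of 55450 genes, and all 10 were found in both. The mice were C57BL/6. The single-cell library was made from the ME of 10 pooled wild-type (WT) female mice aged 2 months, whose tissue was dissociated with papain before the cells entered a droplet 3′ assay that counts unique molecular identifiers (UMIs). The bulk libraries came from 3 WT mice, called control here, and 4 Rax::BrafV600E mutant mice, all labelled 2 months of age, and the tissue went into Trizol without dissociation. In the mutant mice a tamoxifen-activated Cre under the Rax promoter, which is active in tanycytes, switched on BRAF V600E, a constantly active kinase of the ERK pathway. According to the methods, control and mutant tissue alike was taken 2 months after tamoxifen, which is not what the age label says. The paper describes the mutant tissue as tumour and the control ME as normal tissue, while the labels name the median eminence for both. Mutant ME below therefore stands for tissue that the paper calls tumour. The labels do not state whether the controls carried the Cre or received tamoxifen, nor the sex of the bulk mice.

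Immediate early genes are transcribed within minutes of a stimulus without new protein synthesis. ERK signalling acts on them through SRF and its ETS-family partners such as ELK1, and cyclic AMP and calcium act through CREB. Fos and Fosb pair with Jun and Junb in the AP-1 factor, Egr1, Egr2 and Egr3 are zinc-finger factors, Nr4a1 is an orphan nuclear receptor, Atf3 is a stress-induced factor of the ATF/CREB family, and Ier2 is a nuclear protein of the serum response. They are known to be induced by enzymatic dissociation of tissue and by neuronal activity, so a cell's level reports its recent history as well as its type.

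The promoter bases just before the start site are shown for Fos, Fosb and Nr4a1, because all 3 hold the core of the CREB site and Fos also holds a TATA box. The sequences are from RefSeq, 250 bases each, 5′ to 3′ on the gene's strand and ending at the base before the start; capitals mark TGACG on either strand (CGTCA on the printed strand) and TATAAA.
Fos, GRCm38.p6 chr12:85473640-85473889, plus strand: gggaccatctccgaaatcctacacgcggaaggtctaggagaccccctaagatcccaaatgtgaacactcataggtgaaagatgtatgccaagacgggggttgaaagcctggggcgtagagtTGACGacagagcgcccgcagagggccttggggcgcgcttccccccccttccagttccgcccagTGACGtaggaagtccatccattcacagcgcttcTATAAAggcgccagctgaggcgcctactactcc
Fosb, GRCm38.p6 chr7:19310046-19310295, minus strand: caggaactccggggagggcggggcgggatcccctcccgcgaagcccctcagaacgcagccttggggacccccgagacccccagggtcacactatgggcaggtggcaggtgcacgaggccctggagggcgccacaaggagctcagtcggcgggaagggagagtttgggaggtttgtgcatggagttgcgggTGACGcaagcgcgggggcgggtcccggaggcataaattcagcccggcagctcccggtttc
Nr4a1, GRCm38.p6 chr15:101266596-101266845, plus strand: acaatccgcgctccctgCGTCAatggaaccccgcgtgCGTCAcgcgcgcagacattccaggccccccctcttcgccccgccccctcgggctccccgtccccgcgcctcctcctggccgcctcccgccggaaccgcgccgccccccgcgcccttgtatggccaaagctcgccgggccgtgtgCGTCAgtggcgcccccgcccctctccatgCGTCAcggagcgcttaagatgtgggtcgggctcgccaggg
The promoter table held 7 of the 10 members, and Egr1, Egr3 and Ier2 had no entry. TGACG on either strand was found in the 250 bases of 6 of the 7 (Atf3, Egr2, Fos, Fosb, Junb and Nr4a1), against 19.8% of the 27025 genes of the table. A gene was counted when any of its promoters held the motif, and the 7 members had 11 promoters, so that genes with more promoters had more chances. Fos held it at 129 to 125 and at 66 to 62 bases before the start, and TATAAA at 33 to 28 bases before it. Nr4a1 held it at 4 positions, all on the opposite strand. The full palindrome TGACGTCA, which contains that core, was in none of the 7 and in 1.77% of all genes, and the AP-1 site TGANTCA was in none of the 7 and in 7.82% of all. The CArG box bound by SRF, searched as CC, 6 bases of A or T and GG, was in Egr2 alone and in 1.62% of all. Sites farther than 250 bases before the start, or unlike that pattern, were not searched. GCGNGGGCG was in Fosb and Nr4a1 and in 5.33% of all, CCGGAA was in Egr2 and Nr4a1 and in 13.6% of all, and TATAAA was in Fos alone and in 14.3% of all.

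The single-cell library held 990 cells with 3284 to 57119 UMIs each (median 7831.5), which fell into 12 clusters. From marker genes, 11 clusters were called erythrocyte-like, tanycyte-like, VLMC-like (vascular and leptomeningeal cells) A and B, macrophage or microglia-like, OPC-like (oligodendrocyte precursors), PTC-like (pars tuberalis cells), neuron-like, ependymal-like, oligodendrocyte-like and NK or T cell-like. The remaining cluster, of 23 cells led by Krtdap and Slc47a1, was left unnamed. VLMC-like B held 5 of 6 VLMC markers at 3 times their level elsewhere, but its 10 leading genes held the mural marker Tagln and none of its own, and the PTC-like cluster also held all 7 endothelial markers at that level. The bulk libraries held 4928456 to 13816596 counts and 17874 to 40852 genes with a count. The tanycyte markers summed to 743 to 1106 CPM (counts scaled to a common library total) in controls and 763 to 1240 in mutants. Single markers did not move alike, and 4 of the 8 tested were higher in mutants. Among them, picked after their values were seen, Crym was 24.2 to 69.1 CPM in controls and 87.0 to 228 CPM in mutants. Scn7a was 105 to 208 CPM in controls and 79.0 to 106 CPM in mutants.

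The 10 genes together took 1.08% of all UMIs of the single-cell library, and their level differed widely between cell types. It was highest in the VLMC-like clusters, at 4.06% of UMIs in A (exact Poisson 95% interval 4.01% to 4.10%) and 3.76% in B (3.69% to 3.82%). Macrophage or microglia-like cells followed with 1.68% (1.65% to 1.71%), and neuron-like cells, the most deeply sequenced with a median of 31422 UMIs, stood at 0.429% (0.418% to 0.440%). Erythrocyte-like cells, which should make none of these RNAs, gave the background of free RNA at 0.0504% (0.0474% to 0.0535%). Haemoglobin made up 92.9% of the UMIs of these cells. Their percent and CPM therefore need not equal the background in cells of another depth or RNA content. There was 1 library, so no difference between cell types has a replicate check, and these intervals cover counting error only.

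Of the AP-1 genes, Fos had 12189.5 CPM in VLMC-like A (11956 to 12427) and 10364 CPM in VLMC-like B (10040 to 10696), CPM being taken over all UMIs of a cluster. The unnamed cluster followed at 4569.6 CPM, then macrophage or microglia-like cells at 3827 CPM and PTC-like cells at 3413 CPM. Fos fell to 715 CPM (597 to 851) in NK or T cell-like cells and to 118 CPM in erythrocyte-like cells. In the order of Fos levels no neighbouring clusters overlapped in their intervals. Those intervals cover counting error alone, and the order depended on how cells were weighted. As a mean over cells, OPC-like cells (3505 CPM) stood above PTC-like cells (2752 CPM). Oligodendrocyte-like cells (2295 CPM) then stood above tanycyte-like cells (2179 CPM). Jun had 9583 CPM (9376 to 9794) in VLMC-like A and 7715 CPM (7435 to 8002) in B, with the unnamed cluster next at 3143 CPM. Junb was higher in VLMC-like B (9205 CPM, 8900.1 to 9519) than in A (8388 CPM, 8194 to 8585), the reverse of Fos and Jun, and its next cluster was the macrophage or microglia-like one at 4388 CPM. Fosb had 3049 CPM in VLMC-like A and 2845 CPM in B, whose intervals overlapped, and 1244 CPM in PTC-like cells. Among genes also in the bulk table, Fos, Jun and Junb ranked at 15, 24 and 25 of 18040 with a UMI in cells other than the erythrocyte-like.

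**Figure D1:**
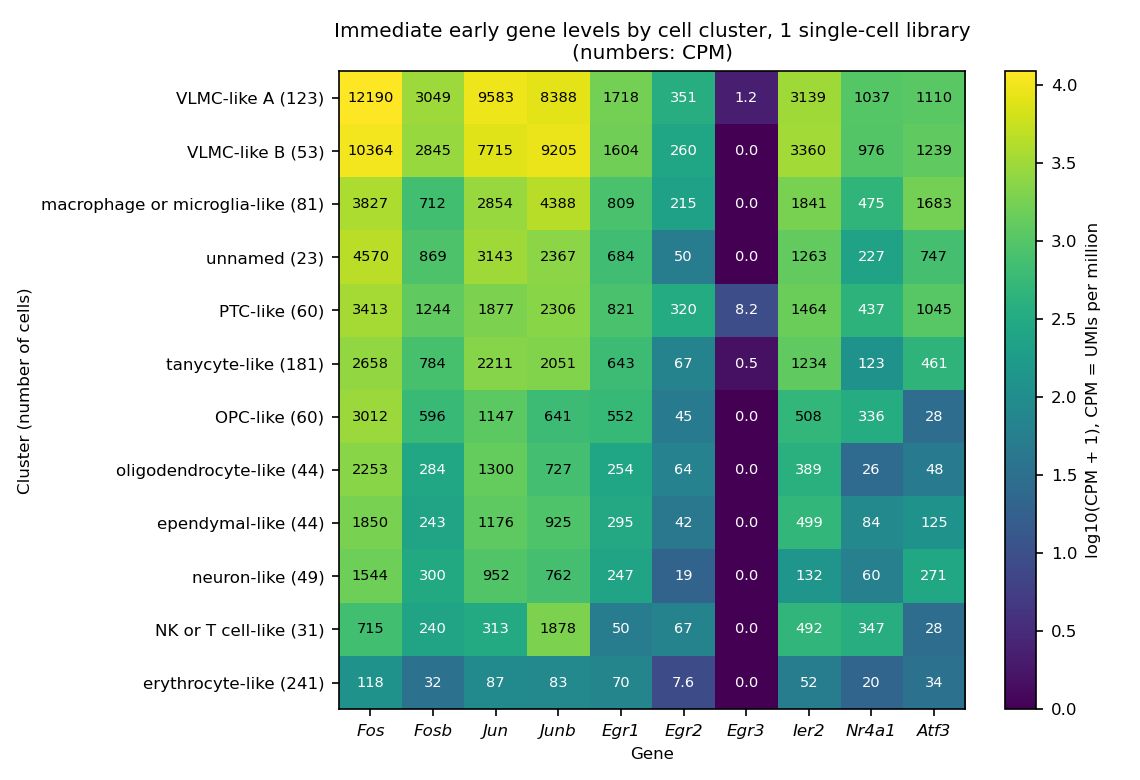
Levels of the 10 genes (columns) in the 12 clusters (rows, number of cells in brackets) of the single-cell library; the colour is log10(CPM + 1) and the printed number is CPM. Rows are ordered by the summed level, and the VLMC-like clusters have the brightest cells for 8 of the 10 genes, Atf3 and Egr3 being the exceptions.

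The zinc-finger genes were lower and unequal among themselves. Egr1 had 1718 CPM (1631 to 1808) in VLMC-like A and 1604 CPM (1478 to 1737) in B, with overlapping intervals. PTC-like cells (821 CPM) and macrophage or microglia-like cells (809 CPM) followed. Egr2, known for its part in myelination and in immune cells, had 351 CPM (312 to 393) in VLMC-like A and 320.4 CPM in PTC-like cells, and these overlapped. Oligodendrocyte-like cells had 64.1 CPM of Egr2. Egr3 was nearly absent, with 6 UMIs in 5 of 990 cells, and 4 of the 6 were in PTC-like cells (8.21 CPM, 2.24 to 21.0). In the other clusters Egr3 had 0 or 1 UMI, where a count of 0 allows up to 1.43 CPM in erythrocyte-like cells and up to 16.8 CPM in NK or T cell-like cells, so no order can be read for this gene.

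Ier2 had 3360 CPM (3176 to 3551) in VLMC-like B and 3139 CPM in A, with overlapping intervals, and 1841 CPM in macrophage or microglia-like cells. In neuron-like cells Ier2 stood at 132 CPM (114 to 153), its lowest level outside the erythrocyte-like background of 51.9 CPM. Nr4a1 had 1037 CPM (969 to 1107) in VLMC-like A and 976 CPM in B, against 475 CPM in macrophage or microglia-like cells and 26.2 CPM in oligodendrocyte-like cells, close to its 20.5 CPM in erythrocyte-like cells. Atf3 was the exception among the abundant members. It was highest in macrophage or microglia-like cells at 1683 CPM (1587 to 1784), 1.36 times VLMC-like B (1239 CPM). Atf3 had 28.4 CPM in OPC-like cells and 27.9 CPM in NK or T cell-like cells, no more than the 33.8 CPM of the erythrocyte-like background. Over the 10 genes, 6 were highest in VLMC-like A, 2 in VLMC-like B, Atf3 in macrophage or microglia-like cells and Egr3 in PTC-like cells.

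The share of cells with a UMI followed the same order for VLMC-like cells. With each cell thinned to 3000 UMIs, which all 990 cells reached, Fos was detected in 95.5% of the 176 VLMC-like cells (exact Clopper-Pearson 95% interval 91.2% to 98.0%) and in 30.3% of erythrocyte-like cells (24.6% to 36.5%). Unthinned, these shares were 97.2% and 56.8%, with median depths of 6533 and 7747 UMIs. Macrophage or microglia-like cells had Fos in 95.1% (87.8% to 98.6%) of thinned cells. VLMC-like A alone had it in 95.9% (90.8% to 98.7%) and B in 94.3% (84.3% to 98.8%), so these intervals overlapped. Ier2, highest in level in VLMC-like B, was in 88.7% (77.0% to 95.7%) of its thinned cells. It was in 95.1% (89.7% to 98.2%) of VLMC-like A and 91.4% (83.0% to 96.5%) of macrophage or microglia-like cells, with overlapping intervals. Tanycyte-like cells had Fos in 66.9% (59.5% to 73.7%) and neuron-like cells in 93.9% (83.1% to 98.7%) of thinned cells, although the Fos level of the tanycyte-like cells was the higher, 2658 against 1544 CPM. Ier2 in neuron-like cells was detected in 24.5% (13.3% to 38.9%) of thinned cells, whose interval overlaps that of the erythrocyte-like cells, 13.7% (9.62% to 18.7%), although its levels of 132 and 51.9 CPM did not overlap in their intervals. Egr2 in neuron-like cells was at 4.08% against 2.90% in erythrocyte-like cells after thinning and at 38.8% against 6.22% before it, at median depths of 31422 and 7747 UMIs. Atf3 in OPC-like cells was detected in 3 of 60 thinned cells against 11.2% of erythrocyte-like cells, and with a level no higher than theirs this share is read as background.

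The 10 genes were unevenly spread among the cells of some types. The part of a cell's UMIs in the 10 genes had a median of 0.134% in tanycyte-like cells, but an upper quartile of 1.58% and a highest value of 4.21%. Of the 181 tanycyte-like cells, 99 (54.7%) were under 0.2%, 68 (37.6%) were at 1% or more, and 14 (7.73%) lay between these bounds, which were set after the values were seen. The ependymal-like cells were divided in a like way, with 26 of 44 under 0.2% and 10 at 1% or more. In VLMC-like A, by contrast, 117 of 123 cells (95.1%) were at 1% or more. Neuron-like cells were spread over a narrow range: none of the 49 reached 1%, the highest was at 0.961%, and 40 (81.6%) lay between 0.2% and 1%. All 241 erythrocyte-like cells were under 0.2%.

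**Figure D2:**
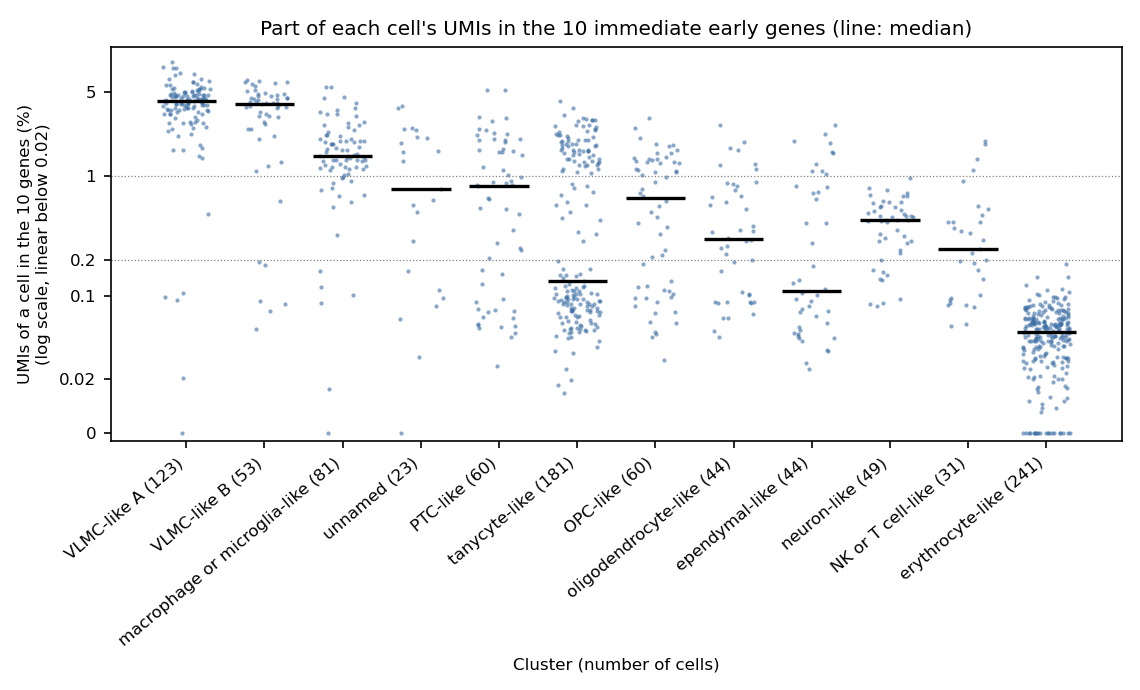
Each point is 1 cell of the single-cell library, the y axis gives the percent of its UMIs that fell in the 10 genes (log scale, linear below 0.02) and the lines are cluster medians; dotted lines mark 0.2% and 1%. Tanycyte-like cells fall into a lower band of 99 cells and an upper band of 68, whereas neuron-like cells form 1 band with a median of 0.432%.

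Tanycyte-like cells of the upper band had Fos at 4671 CPM against 193 CPM in the lower band, and Junb at 3653 against 119.6 CPM. These differences follow from the split and are not a result. Genes that did not enter the split differed as well. The 26 other immediate early genes summed to 13004 CPM in the upper and 1017 CPM in the lower band, 12.8 times as much, and the 6 family partners (Fosl1, Fosl2, Jund, Egr4, Nr4a2, Nr4a3) to 2883 and 614 CPM. The 13 upstream factors and corepressors differed by 1.34 times (375 and 280.1 CPM) and the 10 heat shock genes by 1.46 times (4707 and 3230.1 CPM). Single genes of these lists differed more than the sums, among them, chosen after their values were seen, Srf (93.0 and 13.1 CPM), Hspa1a (224 and 37.9 CPM) and Dnajb1 (371 and 62.7 CPM), while the abundant Hspa8 differed by 1.43 times. Depth moved with the bands, with a median of 11918.5 UMIs in the upper and 6725 in the lower, and the mitochondrial share was 7.20% and 6.21%. The tanycyte markers summed to 4972 CPM in the upper and 7382 CPM in the lower band, with Rax at 440 and 668 CPM. Dio2 alone of these markers was higher in the upper band, at 208 and 118 CPM, and Slc17a8 had no UMI in either. The part of these in the split was not tested. In ependymal-like cells, with 10 cells in the upper and 26 in the lower band, the other immediate early genes were at 10081 and 819 CPM and the median depth was 9001 and 9081 UMIs.

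**Figure D3:**
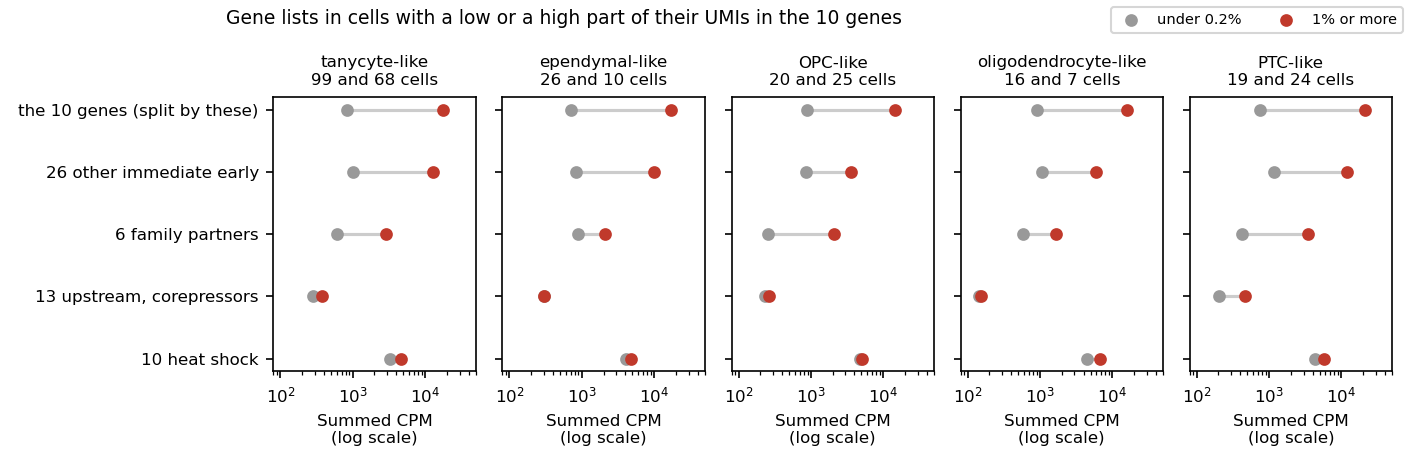
Summed CPM (log scale) of 5 gene lists in cells with under 0.2% (grey) or at least 1% (red) of UMIs in the 10 genes. Panels are 5 clusters, with the number of cells of each kind above. The PTC-like cluster was mixed. Its low and high cells also differed in PTC markers (8671 and 19042 CPM) and median depth (4096 and 7572 UMIs). The split was made on the top list; the other immediate early genes differ by 4.12 to 12.8 times, while the upstream factors and corepressors differ by 0.989 to 2.28 times and the heat shock genes by 1.05 to 1.49 times.

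Members varied together from cell to cell to a degree that differed between types. Across the 181 tanycyte-like cells, the 21 pairs of members seen in at least 50% of the cells had correlations (Pearson's r of log-normalized values) of 0.66 to 0.88, with a median of 0.77. The median was 0.84 in the unnamed cluster (28 pairs), 0.77 in ependymal-like cells (15 pairs), 0.60 in VLMC-like B and 0.45 in VLMC-like A (36 pairs each). Pairs with Egr2, Nr4a1 or Atf3 reached the 50% bound only in some clusters. These medians are therefore not all over the same pairs and do not rank the types. The pair of Fos and Jun had 0.88 in tanycyte-like cells, 0.86 in ependymal-like cells, 0.91 in VLMC-like B and 0.92 in VLMC-like A. The 28 pairs in neuron-like cells had a median of 0.25, from -0.08 for Fosb and Ier2 to 0.68 for Fos and Jun. Ier2 and Nr4a1 had medians of only 2 and 1 UMIs per neuron-like cell. All cells share the library, and values of a cell share its depth, so these are descriptions across cells. The rank correlation of the members' part with a cell's total UMIs was 0.38 in tanycyte-like cells, -0.09 in VLMC-like A and 0.02 in neuron-like cells.

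The mixture of members differed between types. Junb made up 45.5% of the members' UMIs in NK or T cell-like cells (41.8% to 49.1%) and 9.34% in OPC-like cells (8.53% to 10.2%). Fos made up 43.9% in OPC-like cells, 42.1% in oligodendrocyte-like cells and 17.3% in NK or T cell-like cells. Atf3 took 10.0% in macrophage or microglia-like cells and 0.413% in OPC-like cells. Ier2 took 3.09% in neuron-like cells (2.66% to 3.57%), against 9.05% over all cells other than the erythrocyte-like. Egr1 took 13.9% of the background in erythrocyte-like cells (11.9% to 16.1%) and 5.10% in all other cells (4.96% to 5.23%), so the background did not have the mean mixture of the dissociated cells.

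Related genes were counted on lists of the pathway. Of the 26 other immediate early genes, 14 were highest in VLMC-like cells (6 in A, 8 in B), 4 in macrophage or microglia-like, 3 in PTC-like and 3 in NK or T cell-like cells. The 3 most abundant were Klf2, a shear- and serum-responsive zinc-finger factor (9710.2 CPM in VLMC-like A, 115 CPM in oligodendrocyte-like cells), the antiproliferative gene Btg2 (5226 and 386 CPM) and the cytokine signalling inhibitor Socs3 (3217 and 165 CPM). Of the family partners, Jund was the most abundant, with 4935 CPM in VLMC-like A, followed by Nr4a2 and Fosl2 with 40.6 and 33.6 CPM over all cells. The upstream factors and corepressors, led by Crem, Atf2 and Srf, summed to 156 to 426 CPM in the 11 clusters other than the erythrocyte-like, a far smaller range than the 4130.3 to 40565 CPM of the members. The heat shock genes, led by the chaperone Hspa8, ranged from 4090 CPM in tanycyte-like to 8134 CPM in neuron-like cells, an order unlike that of the members.

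In PTC-like cells the activity-regulated genes Egr4, Arc and Npas4, named after their values were seen, stood beside Egr3. Egr4 had 254 of its 319 UMIs there (522 CPM) and Arc 137 of 275 UMIs (281 CPM). Npas4 had 127 CPM in PTC-like and 127 CPM in neuron-like cells. The PTC-like cluster was mixed. Its 24 cells with at least 10 UMIs of PTC markers and under 30 of endothelial markers held all 4 Egr3 UMIs and 246 of the Egr4 UMIs, the latter in 9 cells. The 32 cells with few markers of either type held 8 UMIs of Egr4, 18 of Arc and 7 of Npas4. The 4 cells with at least 30 endothelial UMIs held none of these, but were few. Their exact Poisson interval, which covers counting error only, reaches 198 CPM. In the 24 cells Egr4 was at 819 CPM, Arc at 396 CPM and Npas4 at 183 CPM. With Egr4 in 9 of the 24 cells, an absence from 4 cells cannot show that these kinds of cell differ. The 24 cells had Fos at 3742 CPM (3527 to 3968) and Atf3 at 1438 CPM (1306 to 1581).

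Outside these lists, the genes whose level over the 12 clusters was most like the mean of 9 members (Egr3 was left out, having under 200 UMIs) were Scpep1 (Pearson's r = 0.97), Ccnl1 (0.94), Pnp (0.94), Irf1 (0.93) and Tubb6 (0.93). Irf1, an interferon-regulated factor, had 779 CPM in VLMC-like A and 13.1 CPM in oligodendrocyte-like cells.

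The bulk libraries ask whether the members differ between mutant and control ME without dissociation. Of the 10 members, 9 had a higher fitted level in mutants and Ier2 a lower one, and none passed the test (edgeR's quasi-likelihood test with Benjamini-Hochberg adjustment over 20466 genes, adjusted p from 0.46 to 0.96). No gene of the table was called either (0% called), with 1661 genes at an unadjusted p under 0.05, while DESeq2 called 301 genes and limma-voom 0. At an unadjusted p under 0.05, 3 members (Jun, Nr4a1 and Egr3) were higher, where 4.23% of all genes were, and no member was lower, where 3.89% of all genes were. Every mutant library lay above every control library for 2 members (Fosb and Egr3), against 5.83% of all genes, and below for none, against 3.18%. The median log2 fold change of the members, mutant over control, was 0.92, beside 0.13 over all genes tested. A change in the number of cells of a type and a change of RNA per cell cannot be told apart in such tissue libraries.

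In CPM, Fos was 40.3, 78.5 and 14.0 in controls 1 to 3 and 169, 31.2, 87.7 and 25.7 in mutants 1 to 4. Mutants 1 and 3 were the highest, mutants 2 and 4 lay among the controls, and the log2 fold change was 0.83 ± 0.71 (SE). Fosb, at 2.03, 1.69 and 0.856 CPM in controls, was 2.40, 3.02, 15.2 and 3.57 CPM in mutants. The groups did not overlap, mutant 3 stood far above the rest, and the log2 fold change was 1.98 ± 0.94 (edgeR's adjusted p = 0.63). Its counts were low, at 18, 19 and 10 in controls and 24, 29, 91 and 20 in mutants. The gap between the nearest libraries of the groups therefore rests on few counts.

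Jun, the DNA-binding partner of Fos, was 29.5, 67.2 and 30.5 CPM in controls and 63.9, 96.3, 112 and 63.3 CPM in mutants. Control 2 lay within the range of the mutants and the other 2 controls below it, with a log2 fold change of 0.99 ± 0.39 (edgeR's adjusted p = 0.55). Junb was 78.4, 190.5 and 195 CPM in controls and 314, 47.7, 269 and 77.7 CPM in mutants. Its mutant libraries lay on both sides of the controls, and the log2 fold change of 0.20 ± 0.61 turned negative without control 1, mutant 1 or mutant 3, and under limma-voom.

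Egr1 was 81.6, 177 and 43.7 CPM in controls and 314, 227, 343 and 60.9 CPM in mutants. Mutants 1 to 3 lay above all controls and mutant 4 among them, with a log2 fold change of 1.23 ± 0.60 (edgeR's adjusted p = 0.64). Egr2 was at 0, 9.86 and 4.36 CPM in controls and 0.0999, 3.54, 24.2 and 6.79 CPM in mutants, the widest spread among libraries of any member. Its SD within groups of 2.74 on the log2 scale was above that of 99.9% of all genes, and its log2 fold change of 0.86 ± 1.46 turned negative without mutant 3. Egr3 had 0, 4 and 0 counts in controls and 36, 9, 65 and 13 counts in mutants (0.938 to 10.9 CPM). The groups did not overlap, but the fitted log2 fold change of 5.03 ± 1.66 (edgeR's adjusted p = 0.46) rests on 4 counts of 1 control library, and DESeq2 called this gene alone among the members (adjusted p = 0.031).

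Nr4a1 was 45.0, 47.4 and 26.7 CPM in controls and 212, 58.1, 256 and 40.2 CPM in mutants. Mutants 1 and 3 stood apart, mutant 4 lay among the controls, and the log2 fold change was 1.83 ± 0.62 (edgeR's adjusted p = 0.49). Atf3 was 4.86, 29.4 and 5.48 CPM in controls and 23.3, 7.50, 33.6 and 8.58 CPM in mutants, with overlapping groups and a log2 fold change of 0.46 ± 0.75. Ier2 was 31.2, 76.2 and 91.5 CPM in controls and 57.8, 36.2, 45.9 and 28.2 CPM in mutants, with overlapping groups and a log2 fold change of -0.66 ± 0.40.

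**Figure D4:**
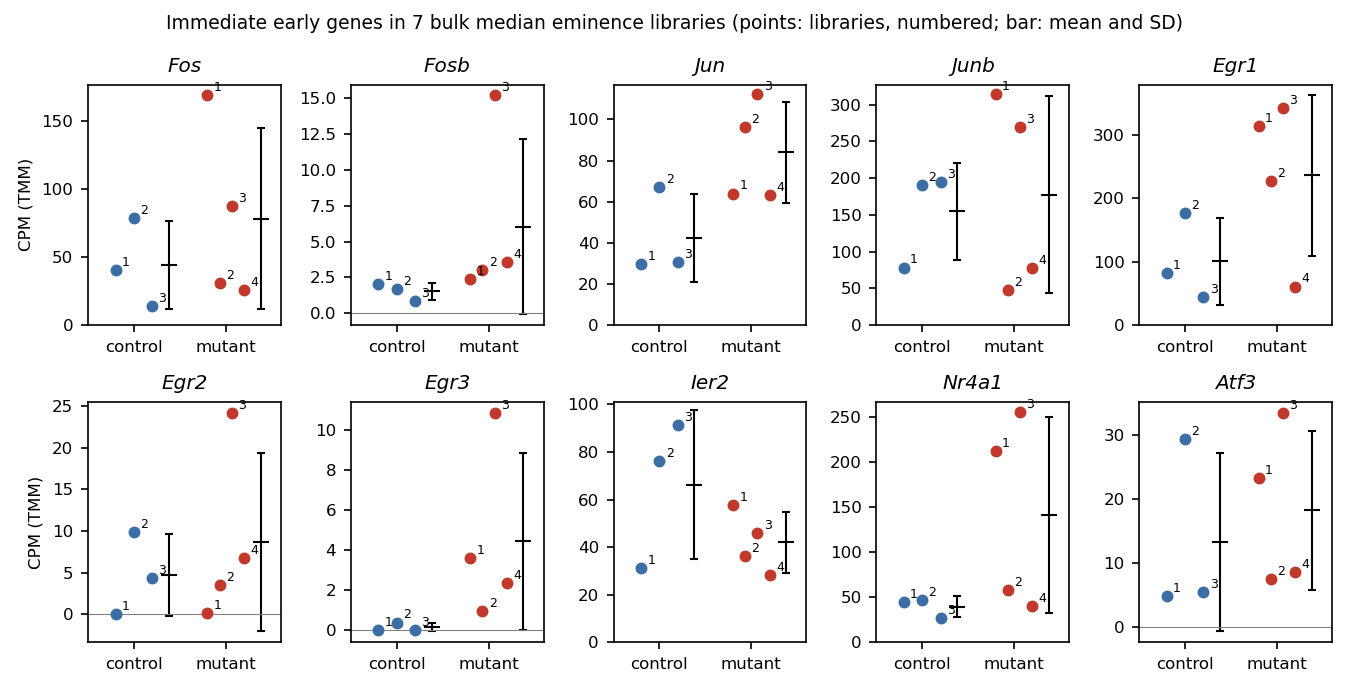
TMM-normalized CPM (y axis, linear, a scale for each gene) of the 10 genes in 3 control (blue) and 4 mutant (red) bulk libraries, with the library's number beside each point and the mean and SD of the group as a bar. Mutants 1 and 3 are the highest mutant libraries for 7 of the 10 genes (Fos, Junb, Egr1, Egr3, Nr4a1, Atf3 and Ier2), and the groups do not overlap for Fosb and Egr3 alone.

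The same mutant libraries were high for most members. Summed over the 10 genes, mutants 1 and 3 had 1161 and 1197 CPM, mutants 2 and 4 had 512 and 317 CPM, and controls had 313, 678 and 412 CPM. Without mutant 3, 9 members passed the filter and 5 of them were higher in mutants. The median log2 fold change of the 9 was 0.76, beside 0.07 over all genes tested. In that edgeR fit 1 member had an unadjusted p under 0.05, as did 892 of the 18560 genes tested. The members' median SD within groups was 1.12 on the log2 scale, against 0.74 over all genes. The genes most like the mean of the members (z-scores over the 7 libraries) were Pdia4 and Naca (Pearson's r = 0.95 each), Gm10263 (0.93), Errfi1, a feedback inhibitor of EGF receptor signalling (0.92), and Dyrk3 (0.92). These are the highest r of all genes tested outside the lists, over only 7 libraries, and are descriptions. Pdia4, the first, was 180, 204 and 181 CPM in controls and 222, 187, 224 and 182 CPM in mutants. Errfi1, picked after its values were seen, was 36.0, 82.8 and 35.5 CPM in controls and 87.1, 84.8, 162 and 71.5 CPM in mutants.

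No gene of the other lists passed the edgeR test in either direction. All 5 tested family partners were higher in mutants, with Nr4a3 and Nr4a2, relatives of Nr4a1, at log2 fold changes of 2.26 and 2.00, and Jund and Fosl2 at 0.33 and 0.30. Of the 26 other immediate early genes, 21 were higher, from Trib1 (2.50) and Sik1 (1.51) to Plk2 (-0.76) and Klf2 (-1.27), with a median of 0.25. Of the 13 upstream factors and corepressors, 12 were higher, from Srf (1.12) and Nab2 (1.08) to Atf1 (0.05) and Nab1 (-0.76). Of 9 tested heat shock genes, 8 were higher, from Hspa1a (1.67, whose near-copy Hspa1b could share its reads) and Hsph1 (0.60) to Hspd1 (0.07) and Hspa8 (-0.14). Over all genes tested, 56.7% were higher in mutants. Detection differed between libraries, with 34942, 21986 and 17874 genes with a count in controls 1 to 3 and 25910, 35978, 40852 and 39508 in mutants 1 to 4. Of the genes named here with the largest fold changes, Nr4a3, Trib1, Sik1, Srf and Hspa1a were lowest in control 3. They stood there at 0, 0.856, 0.0856, 0 and 6.08 CPM. Nr4a2, Nab2 and Hsph1 were not lowest in control 3. The part of detection in these list counts was not tested.

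Cell type markers moved between the groups too. The 6 VLMC markers, of the cells with the highest member levels, summed to 1171 to 2936 CPM in controls and 454 to 817 CPM in mutants, and 1 of the 6 was higher. The 9 macrophage or microglia markers summed to 974 to 2881 and 576 to 1356 CPM with none higher, the 5 PTC markers to 1357 to 4789 and 298 to 1350.5 CPM, and the 8 oligodendrocyte markers to 3137 to 11614 and 2148 to 3643 CPM with none higher. The 7 OPC markers, all higher, summed to 237 to 548 and 764 to 1947 CPM. The 6 markers of other pituitary endocrine cells summed to 706 to 15256 and 971 to 20161 CPM, with 1 of the 4 tested higher. Among them Pomc, picked after its values were seen, was 15892.5 and 19679 CPM in mutants 1 and 3, the libraries with the highest members' sums. Pomc was 1605 and 916 CPM in mutants 2 and 4, and 6421, 353 and 1462 CPM in controls 1 to 3. Prl, Gh, Lhb, Fshb and Pou1f1 of the same list were all highest in control 1 (3969, 853, 1396, 2611 and 4.52 CPM). The members' sum of control 1 was 313 CPM. Lhb (82.3 and 99.7 CPM) and Fshb (424 and 145 CPM) in mutants 1 and 3 were above the other mutants but below controls 1 and 3. Pomc therefore does not stand for its list. No marker of any list was called by edgeR, none of these lists had a marker at 0 in all libraries, and their part in the members' values was not tested.

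Within each library the members held different ranks in dissociated cells and in whole tissue. Ranks were taken among the 27645 genes found in both tables, of which 14693 to 24446 had a count in a bulk library. The tables were made and normalized separately and bulk counts were divided by exon length, so the ranks are descriptions. Fosb stood at the percentile of 99.3 in single cells other than erythrocyte-like, between 7.34 and 15.2 in controls and between 21.9 and 59.7 in mutants. Fos stood at 99.9 in single cells, 58.2 to 88.8 in controls and 84.2 to 95.6 in mutants. Atf3 stood at 98.7, 39.9 to 77.0 and 63.4 to 88.2. Junb (99.9, 93.8 to 95.5 and 89.2 to 98.3) and Ier2 (99.4, 89.8 to 92.3 and 89.9 to 93.5) were high in both. Dissociation, the assay, pooling and the mice differed together between the tables, so their parts cannot be told apart.

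**Figure D5:**
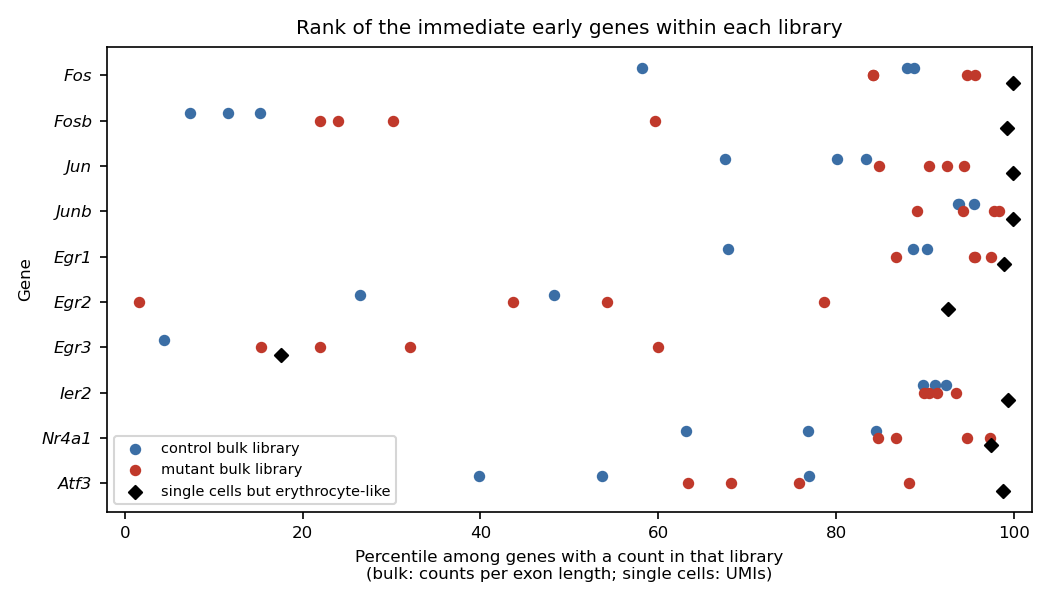
Percentile of each of the 10 genes (x axis) among the genes of both tables with a count in the same library. Points are control (blue) and mutant (red) bulk libraries, and black diamonds the single cells other than erythrocyte-like. For all members but Egr3 the diamond is at 92.6 or above, and the bulk points of Fosb, Egr2 and Atf3 lie farthest below it.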

How the data were processed

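Members and lists were chosen with earlier results of these data known. Per the labels, the authors deposited UMI counts of the 10x library (Cell Ranger, version 2.0.1, GRCm38 in the submitters' processing notes) and unnormalized read counts of bulk Smart-seq2 libraries; the bulk aligner is not given in the sources used here. Seurat 5.3.0 clustered cells on 4799 variable genes without the pathway lists (20 components, resolution 0.8). A cluster took the name of the marker list with the most genes among its 10 leading genes. Ties went to the largest share of a list at 3 times its CPM in the remaining cells. At least 3 genes had to reach that level and at least 1 be among the 10 leading genes. Where that list failed, the list with the largest share was taken if 3 or more of its genes reached it. Scrublet in scanpy called 3 doublets (0.303%), which were kept. Bulk counts were fitted with edgeR 4.0.16 (TMM, filterByExpr, threshold 0.05); DESeq2 1.42.0 and limma 3.58.1 were alternatives. The methods speak of 3 control and 4 mutant mice, and p-values measure the spread between these libraries. Bulk counting was not stated to use strand, so reads of Jun and antisense Junos, and of Junb and overlapping Prdx2, cannot be told apart there; no stretch of 50 bases of a member occurred in another gene's transcripts. Named genes of other lists were the 2 largest and 2 smallest bulk fold changes and the 3 highest in single cells; the 5 most alike genes were ranked by Pearson's r. Intervals (95%) cover counting error only, and a count of 0 was read as up to 3. Scripts were tested on simulated data.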

Additional observations from a re-analysis of the deposited data

Results flagged for a closer look

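In the 4 mutant bulk libraries, 4 of 26 genes had 1 library whose gap to the nearest other, over the range, exceeded Dixon's critical value at 95%. Chance gives this in about 1 of 20 groups of normally distributed values. The CPM were not transformed, so that share need not hold for the 10 members. The other genes had been named for the size of their fold change, so it does not hold for them. Fosb was the 1 member among them, at 15.2 CPM in mutant 3. Jund stood at 24.3 CPM in mutant 4, and the heat shock genes Hsph1 (535 CPM) and Hspa1a (85.6 CPM) stood apart in mutant 2.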

How the results depend on the processing

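The count of genes called between mutant and control ME, 0 in the edgeR fit, was 301 with DESeq2, 240 without a filter on low counts, 13 with at least 10 counts in every library, 3 with library sizes alone, and 1 each with upper-quartile scaling and with the number of detected genes as a covariate; leaving out 1 library gave 0 to 45. Members called were 1 with DESeq2 (Egr3) and 1 without the filter (Nr4a1, adjusted p = 0.00598), and none with any library left out. Replicate numbers did not pair the samples (correlations of -0.45, -0.0076 and -0.23 between same-numbered libraries, 0 of 6 libraries closest to their own number); the replicate block gave 0 calls of 18541 genes. Genes with every mutant library above every control numbered 2260 of 47682 tested without the filter. They numbered 656 of 12402 with at least 10 counts in every library. Over libraries left out they numbered 1247 to 5148, with 18541 to 23560 genes tested. Those below numbered 793 to 2500. Members above were 1 with at least 10 counts in every library. Over libraries left out they were 1 to 4 (4 without control 2, 1 without mutant 1 or mutant 3). Members below were 0 to 1 (1 without control 1). Fold changes that turned were Junb under limma-voom (-0.11) and without control 1 (-0.14), mutant 1 (-0.21) or mutant 3 (-0.07), Egr2 with the covariate (-2.65) and without mutant 3 (-0.42), Atf3 without mutant 3 (-0.0028) and Ier2 with the covariate (0.18); over libraries left out Junb ran from -0.21 to 0.53, Egr2 from -0.42 to 1.98 and Atf3 from -0.0028 to 1.82. Limma-voom moved the median log2 fold change of all genes from 0.13 to 0.35, library sizes alone to 0.25 and no filter to 0.59. In single cells the members' summed level in tanycyte-like cells (10232 CPM) was 9403 CPM at resolution 0.4, 9216 CPM with 10 components, 9420.0 CPM with 30 components or with all variable genes, settings in which the ependymal-like cells had no cluster of their own, and 8241 CPM as a mean over cells; that mean was 17712 CPM in macrophage or microglia-like cells (16804 CPM in summed UMIs) and 12347 CPM over all cells (10794 CPM). The levels of neuron-like cells and of VLMC-like A and B pooled stayed within their intervals in all 7 alternatives; for each alone, the mean over cells was 4.12% of UMIs in A and 3.55% in B, outside theirs. Thinning to 1000 in place of 3000 UMIs lowered the share of cells with a UMI for all 10 members. Depth limits Egr3 (6 UMIs, 4 control counts) most.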

Other observations

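The OPC-like cells at 1% or more and those under 0.2% of UMIs in the 10 genes also differed in precursor markers, of which 6 of 7 were higher in the former and Gpr17 lower (6562 and 3398 CPM in sum). The 25 cells of the former had Pdgfra, a receptor of precursors, at 595 CPM and Gpr17, a receptor of cells on the way to oligodendrocytes, at 263 CPM, and the 20 cells of the latter had 53.7 and 986 CPM. Median depth was 9792 and 11042 UMIs.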
